A study of Arabidopsis thaliana with 9 samples.

Results

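The genes described here are the 10 type-A response regulators of *Arabidopsis thaliana*, *ARR3* (AT1G59940), *ARR4* (AT1G10470), *ARR5* (AT3G48100), *ARR6* (AT5G62920), *ARR7* (AT1G19050), *ARR8* (AT2G41310), *ARR9* (AT3G57040), *ARR15* (AT1G74890), *ARR16* (AT2G40670) and *ARR17* (AT3G56380), chosen by these locus identifiers from the 33602 genes with a deposited value. RNA came from whole seedlings of the wild type Col-0 and of the mutants *bbx11-1* and *pif4-2*, all 4 d old and grown in constant red light (94 μmol/m2/s), with 3 biological replicates of each of the 3 genotypes. *BBX11* encodes a B-box zinc-finger protein and *PIF4* a basic helix-loop-helix factor that phytochromes inactivate, and the study asked which genes each of them regulates in red light. Each mutant was represented by a single allele, no seedlings received cytokinin, and no light condition other than constant red was sampled. The labels name the Col-0 libraries as the wild-type control for BBX11, and both mutants were compared with them here. The values are FPKM, reads scaled by the authors to gene length and library size.

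Cytokinin is perceived by membrane histidine kinases (AHK2 to AHK4), which pass a phosphate through AHP proteins to response regulators in the nucleus. Type-B response regulators are transcription factors that bind DNA, whereas type-A members carry a receiver domain but no DNA-binding domain. Type-A genes are transcribed rapidly after cytokinin treatment, through type-B factors, and their proteins dampen the same pathway, so their transcripts are widely used as a readout of cytokinin signaling. In light signaling, ARR4 is known to bind phytochrome B, the main red-light photoreceptor of seedlings, and to stabilize its active form.

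The 10 genes fall into closely related pairs. In aligned coding sequence, *ARR16* and *ARR17* were 84.9% identical, *ARR3* and *ARR4* 83.7%, *ARR5* and *ARR6* 82.1%, *ARR8* and *ARR9* 81.3%, and *ARR7* and *ARR15* 79.6%. No 50-base stretch of the exons of 9 genes occurred elsewhere in the TAIR10.1 genome, and in *ARR8* 77 of 2035 stretches (3.78%) did. By contrast, *ARR6*, *ARR8* and *ARR9* each overlap a gene on the opposite strand and the strand setting of the counting is not stated. The overlap was 348 bases with the coding gene AT5G62910 for *ARR6*, 299 bases with a long non-coding RNA for *ARR8*, and 231 bases with another for *ARR9*, so their reads could not be told apart from those of the partner in these stretches.

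Promoter letters of the pairs are shown because the pairs with the most similar promoters had very different transcript levels. The 250 bases before each annotated start (RefSeq annotation of TAIR10.1) were aligned locally for all 45 pairs of the 10 genes. *ARR7* and *ARR15* gave the best alignment, with 131 of 166 aligned bases identical (78.9%), and *ARR16* and *ARR17* came next, with 109 of 145 (75.2%). The other coding pairs ranked 15 (*ARR8* and *ARR9*), 22 (*ARR5* and *ARR6*) and 35 (*ARR3* and *ARR4*). A wide gap in level was not particular to similar promoters, since *ARR4* exceeded *ARR3* by 18.9 to 40.05 times. The capitals mark AGATT, a core that type-B response regulators bind, or AATCT, the same core on the other strand. Other forms of the core were not searched for. *ARR4* is printed as the most abundant member and has no such match. The *ARR7*, *ARR15* and *ARR4* windows lie on the minus strand at chr1:6579315-6579564, chr1:28133026-28133275 and chr1:3444361-3444610, and the *ARR16* and *ARR17* windows on the plus strand at chr2:16969423-16969672 and chr3:20905014-20905263. They read, 5′ to 3′:
ARR7: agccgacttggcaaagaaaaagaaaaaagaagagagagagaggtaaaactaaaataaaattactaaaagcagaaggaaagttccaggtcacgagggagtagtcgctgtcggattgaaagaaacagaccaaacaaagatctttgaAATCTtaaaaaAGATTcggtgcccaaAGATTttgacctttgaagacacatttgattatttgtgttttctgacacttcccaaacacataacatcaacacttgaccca
ARR15: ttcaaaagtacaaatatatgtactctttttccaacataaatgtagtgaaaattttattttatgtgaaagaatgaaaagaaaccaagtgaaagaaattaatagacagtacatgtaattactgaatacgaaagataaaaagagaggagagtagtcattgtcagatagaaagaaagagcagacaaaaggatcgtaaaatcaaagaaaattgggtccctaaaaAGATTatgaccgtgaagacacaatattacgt
ARR16: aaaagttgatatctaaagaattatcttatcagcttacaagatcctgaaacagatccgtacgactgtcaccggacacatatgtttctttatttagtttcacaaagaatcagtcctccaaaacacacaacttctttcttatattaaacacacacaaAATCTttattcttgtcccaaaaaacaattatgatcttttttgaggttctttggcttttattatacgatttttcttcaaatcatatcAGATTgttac
ARR17: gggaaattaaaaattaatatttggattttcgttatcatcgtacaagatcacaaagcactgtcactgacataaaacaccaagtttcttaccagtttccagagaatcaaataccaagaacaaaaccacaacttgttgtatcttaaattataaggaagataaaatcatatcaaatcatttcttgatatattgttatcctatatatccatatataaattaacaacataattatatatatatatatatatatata
ARR4: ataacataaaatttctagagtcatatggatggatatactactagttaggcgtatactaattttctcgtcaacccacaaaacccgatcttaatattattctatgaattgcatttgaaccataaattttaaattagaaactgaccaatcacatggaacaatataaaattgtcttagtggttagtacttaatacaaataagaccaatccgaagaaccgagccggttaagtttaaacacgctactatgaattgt

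AGATT on either strand occurred in the windows of 7 of the 10 genes, against 63.7% of 27425 promoters of the same length, so holding it was no more than is usual. *ARR6* and *ARR7* held 3 matches, *ARR9* and *ARR16* 2, and *ARR3*, *ARR8* and *ARR15* 1, while *ARR4*, *ARR5* and *ARR17* held none. The nearest match in *ARR7* lay 80 bases before the start and the match in *ARR15* 31 bases before it, both within the stretch that the promoters share. CACGTG, the G-box, which PIF proteins and other factors bind, occurred in 0 of the 10 windows against 6.49% of all promoters. CACATG, a weaker PIF-binding variant, occurred in *ARR3*, *ARR4* and *ARR8*, against 11.1% of all promoters. These are matches of letters and not measured binding.

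The libraries held the transcripts of a whole seedling. Green-shoot markers and root markers were both detected, and 0 of the 25 markers of 4 tissues was listed at 0 in every library. Some were near 0 and below the filter of the test, among them *NRT2.1* (0 to 0.06 FPKM), *WUS* (0 to 0.15) and *CLV3* (0 to 0.29). Read totals inferred from the spacing of low FPKM values ran from 16.2 to 22.2 M per library. *BBX11* was at 15.7, 16.4 and 78.2 FPKM in Col-0 and at 10.7, 9.39 and 7.66 in *bbx11-1*. Its log2 fold change of -1.52, with every *bbx11-1* library below every Col-0 library, did not pass the test (limma adjusted p = 0.231). The third Col-0 library stood far above the others for this gene. With that library left out, 0 of 9 tested type-A genes passed the adjusted p in limma in any comparison, as with it. *PIF4* averaged 30.4 ± 4.76 FPKM in Col-0 and 16.9 ± 0.63 in *pif4-2* (SD, n = 3; limma adjusted p = 0.00121), so transcript from that locus remained in the mutant. Because these are bulk samples, fewer cells that express a gene and less RNA per cell cannot be told apart.

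In Col-0 the type-A genes covered a wide range of levels, and the family's transcript pool was dominated by *ARR4* and *ARR9*. *ARR4* was at 64.5, 45.9 and 50.1 FPKM, above 88.0% of the genes with at least 1 FPKM in Col-0. *ARR9*, a gene under control of the circadian clock, was at 32.4, 29.0 and 29.3 FPKM, above 79.3% of those genes. Together they made up 60.7 to 65.6% of the summed FPKM of the family in the 9 libraries. *ARR8*, the paralogue of *ARR9*, followed at 16.2, 11.1 and 18.4 FPKM, and *ARR9* exceeded it in 9 of 9 libraries, by 1.59 to 2.62 times.

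**Figure D1:**
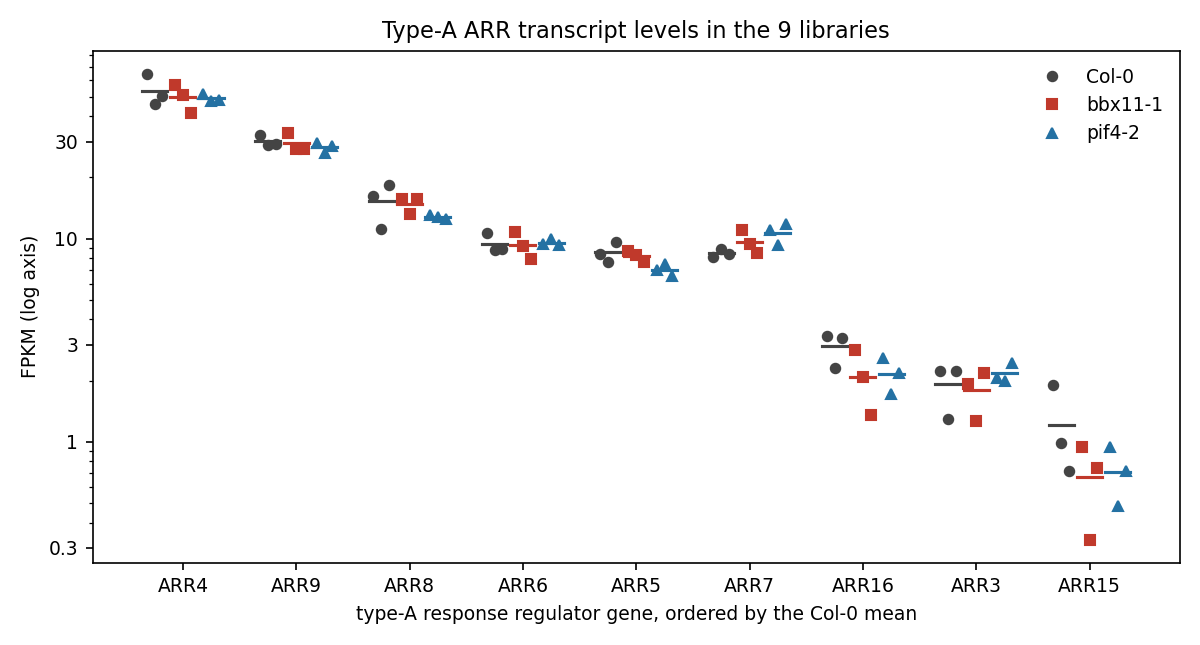
FPKM (log axis) of the 9 type-A genes with a value above 0 in each of the 9 libraries; points are libraries, short lines the means of 3 replicates of Col-0, *bbx11-1* and *pif4-2*. *ARR17*, at 0 in every library, cannot be drawn on a log axis; *ARR4* lies highest at 41.4 to 64.5 FPKM and *ARR15* lowest at 0.33 to 1.90.

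A middle group had nearly equal levels. *ARR6* was at 10.7, 8.79 and 8.86 FPKM in Col-0. *ARR5*, whose promoter drives a widely used cytokinin reporter, was at 8.44, 7.67 and 9.62 FPKM. *ARR7* was at 8.10, 8.86 and 8.40 FPKM. The Col-0 ranges of *ARR6* and *ARR5* overlapped, as did those of *ARR5* and *ARR7*, so the order of these 3 genes was not resolved. Within libraries, *ARR6* exceeded *ARR5* in 8 of 9, and *ARR5* exceeded *ARR7* in 2 of 9.

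The weakest members were *ARR16*, *ARR3* and *ARR15*. *ARR16*, known with *ARR17* from the stomatal lineage, was at 3.31, 2.31 and 3.24 FPKM in Col-0. *ARR3*, the paralogue of the most abundant member, was at 2.24, 1.29 and 2.24 FPKM, and *ARR4* exceeded it by 18.9 to 40.05 times over the 9 libraries. *ARR15*, known with *ARR7* from the shoot apical meristem and the embryonic root, was at 1.90, 0.99 and 0.72 FPKM, and *ARR7* exceeded it by 4.26 to 28.4 times despite the shared promoter stretch. *ARR17* was listed at 0 in all 9 libraries, while its paralogue *ARR16* was at 1.35 to 3.31 FPKM. For a count of 0 in a single library, 3 reads are about the 95% confidence bound, taken on the upper side alone. At the annotated exon length of *ARR17* (618 nt), 3 reads would correspond to 0.218 to 0.2995 FPKM, and at a shorter length to more.

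Few reads stood behind the weakest members. FPKM values of 1 gene are multiples of what 1 read is worth, and the coarsest spacing that fits the 9 values gave the reads per library, which would be higher if a finer spacing applied. For *ARR15* this gave 20, 10 and 8 reads in Col-0, 11, 4 and 8 in *bbx11-1*, and 11, 6 and 10 in *pif4-2*. The exact Poisson interval (95%) for 20 reads was 12.2 to 30.9 and for 4 reads 1.09 to 10.2, covering counting error only. *ARR16* had 15 to 37 reads and *ARR3* 22 to 57. If the annotated exon lengths had been used for FPKM, the numbers would be 1.73 times as high for *ARR15* (6.93 to 34.6 reads), 3.24 times for *ARR16* (48.6 to 119.8) and 1.25 times for *ARR3* (27.4 to 71.0). Over the 9 libraries the coefficient of variation was 51.7% for *ARR15*, 27.5% for *ARR16* and 21.2% for *ARR3*, against 7.41% for *ARR9* and 9.50% for *ARR6*.

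**Figure D2:**
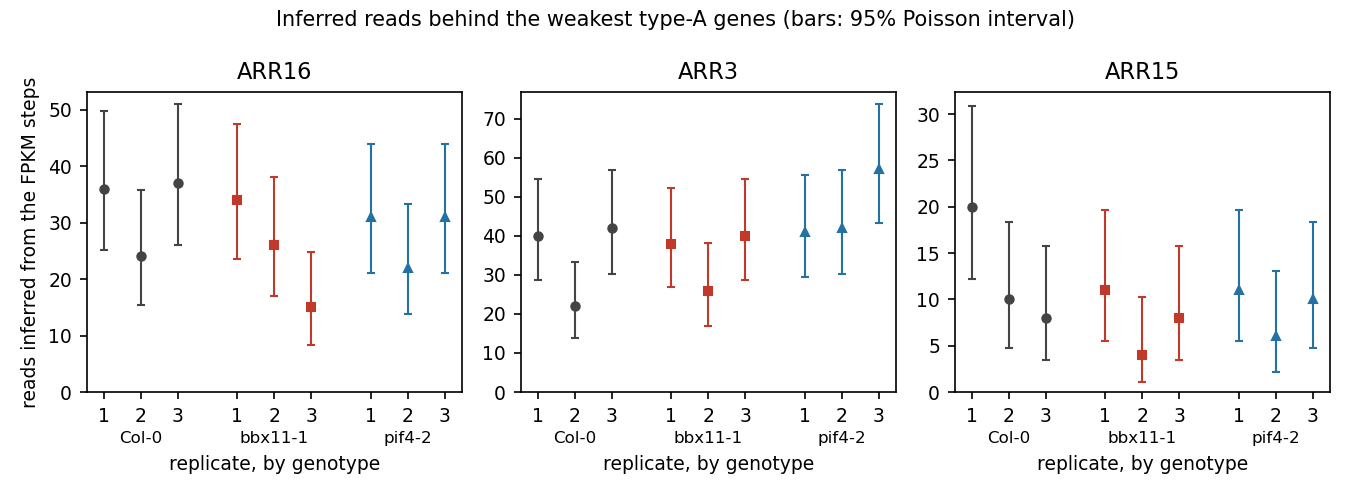
Reads inferred from the coarsest steps of the FPKM values for *ARR16*, *ARR3* and *ARR15* in each replicate of Col-0, *bbx11-1* and *pif4-2*, with 95% Poisson intervals as bars. The *ARR15* points lie between 4 and 20 reads. The intervals of these extremes, picked as the lowest and highest library, are 1.09 to 10.2 and 12.2 to 30.9.

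No type-A gene passed the test in either mutant. The summed FPKM of the 10 genes was 131.5 ± 16.0 (SD, n = 3) in Col-0, 125.7 ± 14.6 in *bbx11-1* and 122.4 ± 4.85 in *pif4-2*, and the ranges of the genotypes overlapped. Of the 10 genes, 9 passed the filter, which asked that the mean of any genotype reach 1 FPKM, *ARR15* through Col-0 alone, and *ARR17* was not tested. Calls required a change of 2-fold or more together with a limma p, adjusted by Benjamini-Hochberg over 19169 genes, below 0.05. The study tested counts with edgeR at the same cut-offs and listed more changed genes for each mutant than were called here. In *bbx11-1* against Col-0, 0 of 9 members were called, where 0.146% of all tested genes were, and 0 of 9 passed the adjusted p alone (background 0.443%). In *pif4-2* against Col-0, 0 of 9 members were called (background 1.13%), and 0 of 9 passed the adjusted p alone (4.84%). In *bbx11-1* against *pif4-2*, 0 of 9 were called (0.636%) and 0 of 9 passed the adjusted p alone (2.32%). An F test over the 3 genotypes passed 0 of 9 members and 4.65% of all tested genes. With such backgrounds, a count of 0 among 9 genes does not set the family apart from other genes.

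The intervals limit how large a change of FPKM + 0.5 could have gone unseen. Adding 0.5 understates the fold changes of the weak members *ARR16*, *ARR3* and *ARR15*. The 95% confidence interval of the fold change lay within 2-fold in either direction for 8 of 9 members in *bbx11-1* against Col-0, for 8 in *pif4-2* against Col-0, and for 9 in *bbx11-1* against *pif4-2*. Within 1.5-fold, the numbers were 7, 6 and 7. *ARR15* was the member whose interval reached beyond 2-fold in both comparisons with Col-0. The median log2 fold change of the 9 members was -0.05, -0.11 and -0.04 in the 3 comparisons, against 0.00, -0.02 and 0.02 over all tested genes.

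**Figure D3:**
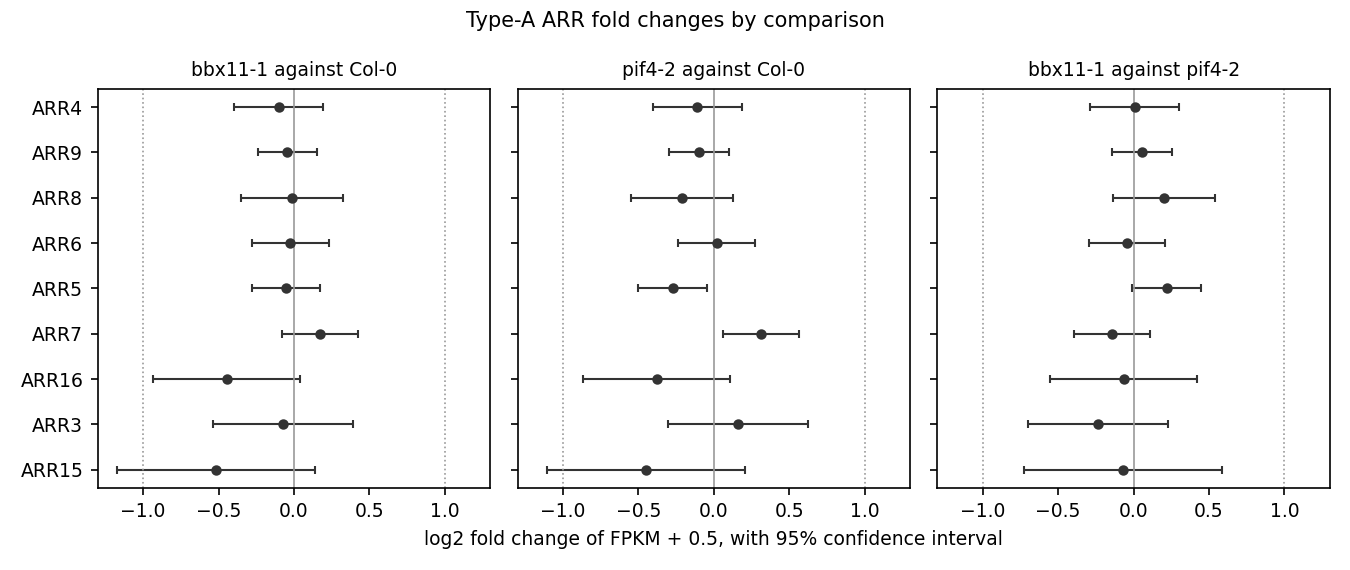
Log2 fold change of FPKM + 0.5 (points) with its 95% confidence interval from limma (bars) for the 9 tested type-A genes in each of the 3 comparisons; dotted lines mark a 2-fold change. All points lie between -0.52 and 0.32, and *ARR5* and *ARR7* in *pif4-2* against Col-0 are the intervals that leave out 0.

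In *bbx11-1* the abundant members lay close to Col-0. *ARR4* was at 56.9, 50.9 and 41.4 FPKM, and its log2 fold change was -0.10 (95% interval -0.40 to 0.19). *ARR9* was at 32.9, 27.6 and 27.7 FPKM, with a log2 fold change of -0.04 (interval -0.24 to 0.15), the narrowest interval in the family. For both genes the *bbx11-1* and Col-0 libraries overlapped, and both intervals lay within a 1.5-fold change.

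*ARR8*, *ARR6* and *ARR5* had log2 fold changes near 0. *ARR8* was at 15.7, 13.2 and 15.6 FPKM in *bbx11-1* (log2 fold change -0.01). *ARR6* was at 10.7, 9.24 and 7.97 FPKM (-0.02), and *ARR5* at 8.69, 8.34 and 7.66 FPKM (-0.05). The libraries of *bbx11-1* and Col-0 overlapped in all 3 genes. *ARR7* was at 11.04, 9.38 and 8.48 FPKM, the only tested member with a positive log2 fold change in this comparison (0.17, interval -0.08 to 0.42, limma adjusted p = 0.665). The remaining 8 of 9 lay below 0, where 48.9% of all tested genes did. When the first Col-0 library was left out, 5 of these 8 turned positive, and *ARR15*, then below the filter, was not tested.

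*ARR16* and *ARR15* had the lowest fold changes in *bbx11-1*, and *ARR15* had passed the filter through its higher Col-0 mean. *ARR16* was at 2.83, 2.08 and 1.35 FPKM, and its log2 fold change was -0.44 ± 0.22 (SE; interval -0.93 to 0.04; limma adjusted p = 0.519). *ARR15* was at 0.94, 0.33 and 0.74 FPKM, with a log2 fold change of -0.52 ± 0.30 (SE; interval -1.18 to 0.14; limma adjusted p = 0.596). *ARR3* was at 1.93, 1.27 and 2.19 FPKM (log2 fold change -0.07). In each of the 3 genes *bbx11-1* libraries overlapped Col-0 libraries. Compared within libraries of the same number, *ARR16* and *ARR3* were lower in *bbx11-1* in 3 of 3 pairs and *ARR7* was higher in 3 of 3. These 3 of 9 members moved one way in every pair, where 37.2% of all tested genes did, and with the replicate block the limma adjusted p was 0.329 for *ARR16*, 0.896 for *ARR3* and 0.572 for *ARR7*. Of the 9 tested members, 0 had groups that did not overlap, where 12.6% of all tested genes did, and 0 had an unadjusted p under 0.05 (background 10.7%).

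In *pif4-2* a pair of mid-level members stood apart from Col-0 in opposite directions, by less than the test requires. *ARR5* was at 7, 7.49 and 6.51 FPKM in *pif4-2* against 8.44, 7.67 and 9.62 in Col-0. Every *pif4-2* library lay below every Col-0 library, with a log2 fold change of -0.27 ± 0.10 (SE; interval -0.50 to -0.04; limma adjusted p = 0.202). *ARR7* was at 10.99, 9.30 and 11.75 FPKM in *pif4-2* against 8.10, 8.86 and 8.40 in Col-0. Every *pif4-2* library lay above every Col-0 library, with a log2 fold change of 0.32 ± 0.11 (SE; interval 0.06 to 0.57; limma adjusted p = 0.179). These were the 2 of 9 members with an unadjusted p under 0.05 (background 16.6%) and with groups that did not overlap (background 22.3%), shares near those of all genes.

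The other members overlapped between *pif4-2* and Col-0. *ARR8* was at 13.1, 12.8 and 12.5 FPKM in *pif4-2* (log2 fold change -0.21, limma adjusted p = 0.564). The second Col-0 library, at 11.1 FPKM, was the one below the mutant, and without it the log2 fold change was -0.42 with a limma adjusted p of 0.0512. *ARR4* was at 51.5, 47.6 and 48.1 FPKM (log2 fold change -0.11, limma adjusted p = 0.773), and without the first Col-0 library the sign turned (0.03). *ARR9* was at 29.7, 26.4 and 28.6 FPKM (-0.10) and *ARR6* at 9.43, 9.90 and 9.32 FPKM (0.02).

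Among the weak members, *ARR16* was at 2.57, 1.71 and 2.18 FPKM in *pif4-2* (log2 fold change -0.38, limma adjusted p = 0.450). *ARR15* was at 0.94, 0.48 and 0.72 FPKM (-0.45, limma adjusted p = 0.528). Both genes had negative estimates in each mutant, but the comparisons share the Col-0 libraries, and *ARR15* without the first Col-0 library was below the filter and not tested. *ARR3* was at 2.07, 1.99 and 2.44 FPKM (0.16, interval -0.30 to 0.62).

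Set against each other, the mutants showed no type-A gene past the test. *ARR5* was higher in every *bbx11-1* library than in every *pif4-2* library (log2 fold change 0.22, interval -0.01 to 0.45, limma adjusted p = 0.353). *ARR8* was likewise higher in every *bbx11-1* library (log2 fold change 0.20, limma adjusted p = 0.595). These were the 2 of 9 members whose groups did not overlap, where 23.3% of all tested genes did, and 0 of 9 had an unadjusted p under 0.05 (background 14.9%). *ARR7* had a log2 fold change of -0.14 (interval -0.40 to 0.11), and *ARR4* and *ARR9* of 0.01 and 0.05.

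The replicates of Col-0 and *bbx11-1* differed among themselves as much as the genotypes did. The first library of *bbx11-1* was above the mean of the other two in 9 of 9 tested members, with a median of 0.29 on the log2 scale, while 54.6% of all tested genes were higher in it. In Col-0 the first library was higher in 7 of 9 members (median 0.23; all genes 55.3%), and in *pif4-2* in 7 of 9 (median 0.07; all genes 46.0%). The median SD of the members on the log2 scale was 0.25 in Col-0, 0.20 in *bbx11-1* and 0.09 in *pif4-2*, against 0.15, 0.14 and 0.09 over all tested genes. The *pif4-2* libraries were thus the most alike for these genes, as for all genes. What set the first libraries apart was not tested.

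**Figure D4:**
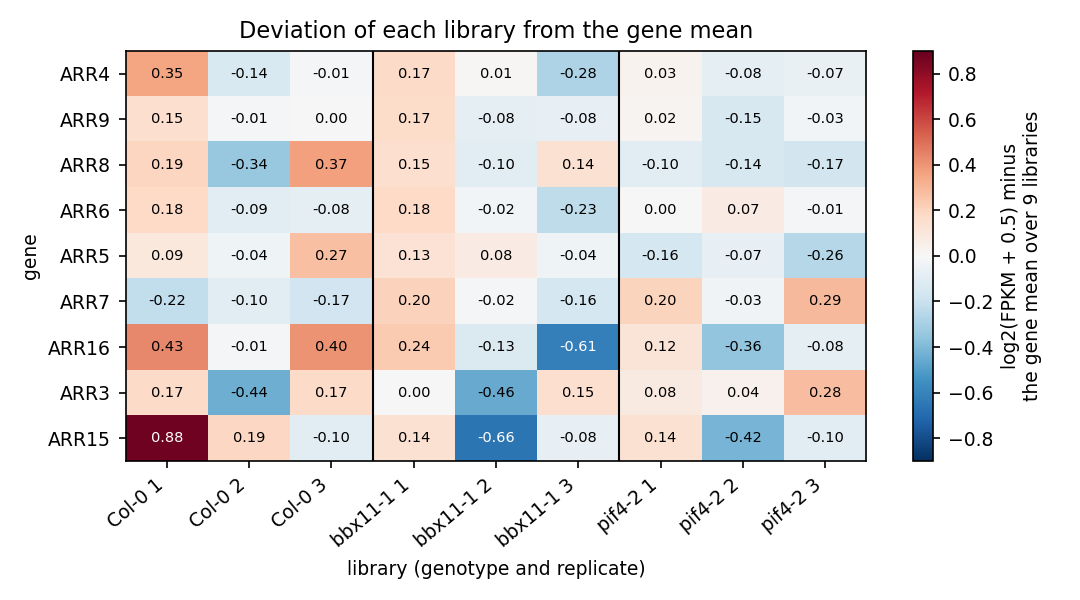
Deviation of log2(FPKM + 0.5) of each tested type-A gene (rows) in each library (columns) from that gene's mean over the 9 libraries, written in each cell. In the first *bbx11-1* library 9 of 9 genes lie above their mean and in the second Col-0 library 1 of 9; the largest deviation is 0.88, for *ARR15* in the first Col-0 library.

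The genes whose profile over the 9 libraries was most like that of the summed type-A transcripts were AT4G28610 (*PHR1*, a regulator of phosphate starvation responses), AT5G53580 (*PLR1*, a pyridoxal reductase) and AT5G08540. Their root-mean-square difference from the family's centred log2 profile was 0.0319, 0.0331 and 0.0359 among 14942 candidates. The family's profile had an SD of 0.13 on the log2 scale, so the likeness is to small swings between libraries.

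The other cytokinin genes were examined as 13 lists of 66 genes, of which 44 passed the filter. In *bbx11-1* against Col-0, 0 of 44 passed the adjusted p (background 0.443%), with 7 of 44 at an unadjusted p under 0.05 (10.7%). In *bbx11-1* against *pif4-2*, 0 of 44 passed (2.32%), with 13 of 44 at an unadjusted p under 0.05 (14.9%). In *pif4-2* against Col-0, 1 of 44 rose (background 2.88%) and 2 of 44 fell (1.95%). Together 3 of 44 passed the adjusted p, where 4.84% of all tested genes did, so that count does not set these lists apart from other genes. With no filter on low values, the limma adjusted p of these 3 genes was 0.0797 (*PUP14*), 0.0736 (*ABCG14*) and 0.0717 (*KMD4*). In *pif4-2* against Col-0, 11 of 44 had an unadjusted p under 0.05 (16.6%). The unadjusted shares lay above those of all genes in every comparison, and no set test was run.

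*PUP14*, a plasma membrane carrier that takes up cytokinin and so lowers its level outside the cell, rose in *pif4-2*. It was at 37.4, 68.1 and 62.4 FPKM in Col-0 and 111.1, 111.0 and 106.6 in *pif4-2*, and the log2 fold change was 1.01 ± 0.22 (SE; limma adjusted p = 0.0219). In *bbx11-1* it was at 58.03, 76.97 and 98.94 FPKM, overlapping Col-0, with a limma adjusted p of 0.454. Without *pif4-2* replicate 1, 2 or 3, the limma adjusted p in *pif4-2* was 0.0816, 0.0819 and 0.0682, with a log2 fold change of 1.00 to 1.03. Without Col-0 replicate 1, the lowest library, the log2 fold change was 0.74 (limma adjusted p = 0.0324), less than 2-fold.

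*ABCG14*, which exports cytokinin from root to shoot, fell in *pif4-2*. It was at 15.9, 15.1 and 19.0 FPKM in Col-0 and 12.7, 12.1 and 11.7 in *pif4-2*, and the log2 fold change was -0.43 (limma adjusted p = 0.0364). Without Col-0 replicate 1 or 3 the limma adjusted p was 0.0555 and 0.103, and without *pif4-2* replicate 1, 2 or 3 0.0903, 0.122 and 0.147.

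*KMD4*, an F-box protein of a family that targets type-B response regulators for degradation, also fell, whereas *KMD1* and *KMD2* had log2 fold changes of 0.20 and 0.22 that did not pass the test. It was at 143.1, 157.7 and 129.6 FPKM in Col-0 and 110.6, 119.8 and 104.7 in *pif4-2*, and the log2 fold change was -0.36 (limma adjusted p = 0.0383). Without Col-0 replicate 1 or 2 the limma adjusted p was 0.0761 and 0.112, without *bbx11-1* replicate 2 0.0534, and without *pif4-2* replicate 1, 2 or 3 it was 0.138, 0.0605 and 0.177. The direction of all 3 genes was the same with each of the 9 libraries left out.

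**Figure D5:**
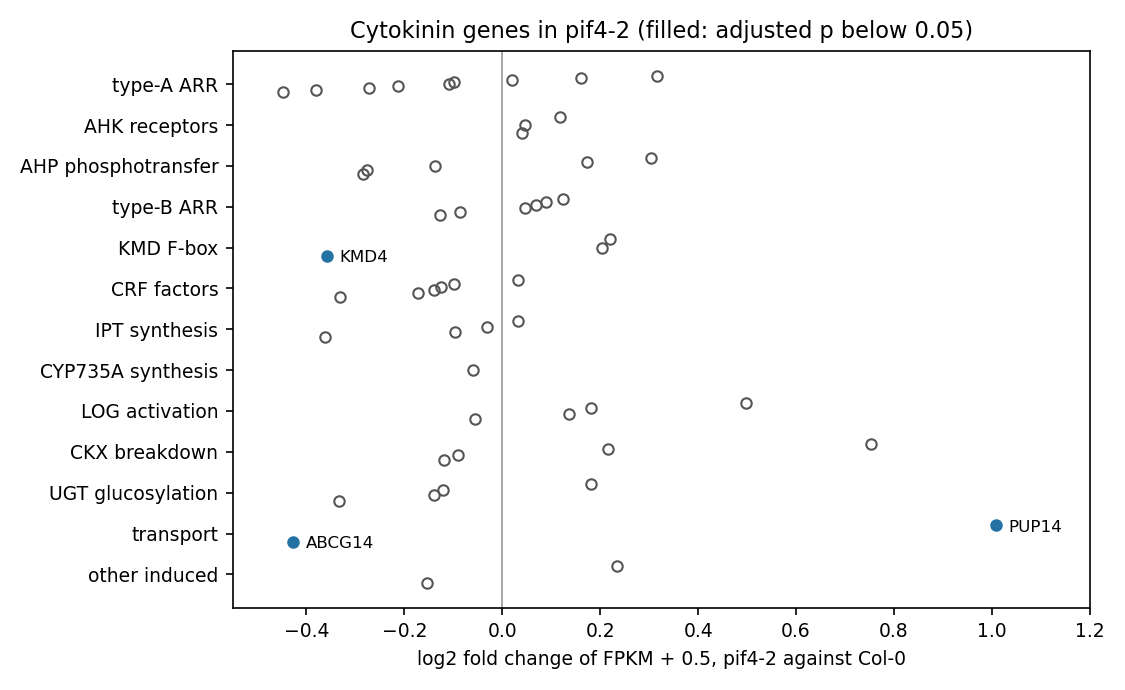
Log2 fold change of FPKM + 0.5 in *pif4-2* against Col-0 for the 9 tested type-A genes and the 44 tested genes of the other cytokinin lists, 1 row per list; filled points passed an adjusted p of 0.05 in limma. The filled points are *PUP14* at 1.01, *KMD4* at -0.36 and *ABCG14* at -0.43, and 0 of the type-A points is filled.

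No other tested gene of the pathway passed the test in any comparison. Genes below the filter, among them the type-C genes, were not tested. The most abundant receptor gene was *AHK3* (28.9 to 36.5 FPKM over the 9 libraries), the most abundant phosphotransfer gene *AHP2* (28.6 to 36.6) and the most abundant type-B gene *ARR1* (21.2 to 27.2). Type-B *ARR1*, a direct activator of type-A genes, had levels between those of *ARR9* and *ARR8*. Of the type-C genes, *ARR22* reached at most 0.27 FPKM and *ARR24* was listed at 0 in every library. By the mean over the 9 libraries, *KMD1* (113.4 to 176.7 FPKM) led the KMD list, although *KMD4* was higher in all 3 Col-0 libraries. *CRF2* (4.65 to 8.15 FPKM) and *CRF6* (5.99 to 8.90) had nearly equal means among the cytokinin response factors.

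For synthesis, *IPT9* (11.03 to 13.54 FPKM), a tRNA-type isopentenyltransferase, *CYP735A2* (1.86 to 4.10), which makes trans-zeatin types, and *LOG8* (19.2 to 25.2), which releases active bases, had the highest means over the 9 libraries in their lists. *LOG1* (17.5 to 23.8 FPKM) was close to *LOG8* and had the higher mean in *pif4-2*. *CKX7* (4.57 to 6.46 FPKM), a cytosolic cytokinin oxidase, and *UGT73C5* (55.3 to 71.0), a glucosyltransferase that also acts on brassinosteroids, led those for breakdown and conjugation. *CGA1* (7.05 to 10.5 FPKM), a GATA factor induced by cytokinin and light, led the other induced genes.

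A shoot-meristem marker was lower in *pif4-2*. The summed FPKM of 4 shoot-meristem markers was 7.43 to 7.90 in *pif4-2*, against 12.2 to 14.7 in Col-0 and 12.5 to 16.3 in *bbx11-1*, and none of the 4 was at 0 in every library. Most of it was *KNAT1*, a homeobox gene of the meristem and stem and the single one of the 4 to pass the test. It fell from 11.2 ± 1.36 to 6.13 ± 0.14 FPKM (SD, n = 3; log2 fold change -0.82, limma adjusted p = 0.00288). *STM*, which maintains the meristem, was at 2.25 ± 0.21 FPKM in Col-0 and 1.51 ± 0.064 in *pif4-2* (limma adjusted p = 0.0921), and *WUS* and *CLV3* were below the filter. The sum of 12 root markers was 2003 to 2081 FPKM in *pif4-2*, 1959 to 2538 in Col-0 and 1993 to 2595 in *bbx11-1*, ranges that overlap. *PYK10*, an abundant beta-glucosidase, made up 89.7 to 93.1% of it, and 0 of the root markers passed the test in *pif4-2*, with *RCI3* and *CASP1* at log2 fold changes of -0.24 and -0.25 and *EXPA7* at 0.44. The sum of 5 stomatal-lineage markers was 16.7 to 20.2 in *pif4-2*, 14.2 to 22.2 in Col-0 and 11.7 to 19.1 in *bbx11-1*, again overlapping. The part of these markers in the values of *ARR5*, *ARR7* and *ARR16* was not tested.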

How the data were processed

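RNA was extracted from whole seedlings, and 3 libraries of each of 3 genotypes were sequenced. Reads were aligned to TAIR10 with Hisat2 and counted per gene with HTSeq by the authors. Their deposited tables give FPKM with 2 decimals, a value for each gene in every library. How FPKM was computed, the strand setting and the treatment of reads with several alignments are not given in the sources used here. Genotype and replicate came from the labels. No 2 libraries held identical values. The replicates are described as independent, and p-values set differences between genotypes against the spread between replicates.

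Log2(FPKM + 0.5) was fitted in limma 3.58.1 (R 4.3.3; lmFit, eBayes with intensity trend), all 9 libraries in 1 fit with 6 residual degrees of freedom, for the 19169 of 33602 genes whose mean reached 1 FPKM in any genotype, with Benjamini-Hochberg adjustment over all of them. The pseudocount understates the fold changes of weak genes. The smallest p of an exact permutation of 3 against 3 libraries is 0.1, so limma was used. The members, the gene lists and the tests were chosen with earlier results of these data known. All members were named; of other cytokinin genes, those past an adjusted p of 0.05 and the most abundant of each list, and the 3 genes nearest to the summed members in centred log2 profile.

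Depth was inferred from genes under 600 nt, in which 69.0% to 73.8% of low values lay within 0.1 of a whole read. Since steps of FPKM depend on gene length, no count test was run. Deviations from the genotype means correlated between Col-0 and *bbx11-1* libraries of the same number (0.55, 0.29 and 0.28), so by the correlation, and not by the labels, the numbers pair these libraries. For *pif4-2* and Col-0 the correlations were 0.07, 0.06 and 0.02. Inferred depth was 16.2 to 17.8 M reads in Col-0 and 18.8 to 22.2 M in *pif4-2*. Any difference in handling between the Col-0 and *pif4-2* libraries cannot be told apart from genotype. The main fit held no term for the replicate number, so its p-values and intervals ignore the pairing of Col-0 and *bbx11-1* libraries. Positions, promoters and coding sequences came from the RefSeq annotation of TAIR10.1, which matched 32835 of the 33602 identifiers, and the files hold no coordinates. Alternatives were pseudocounts of 0.1 and 1, other filters, median-of-ratios and quantile scaling, no trend, fits of the 2 genotypes compared, a replicate block, replicates 2 and 3 only, each library left out in turn, and fold thresholds of 1.5 or none. Python 3.11.15, pandas 2.3.3 and matplotlib 3.10.9 were used.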

Additional observations from a re-analysis of the deposited data

How the results depend on the processing

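Under every alternative run, 0 members passed the adjusted p in any comparison or in the F test (limma), and the replicate block changed no call of a member. Of 503 alternative values of single members, 473 kept their direction and 30 reversed, 27 of these with 1 library left out. The lowest adjusted p in limma was 0.0512 (*ARR8*, *pif4-2* against Col-0, without the second Col-0 library). *ARR15* could not be tested without the first Col-0 library, with replicates 2 and 3 only, or with a filter on the mean of 9 libraries. Its few reads per library (4 to 20 at the coarsest spacing, more at a finer one) limit what can be seen. In *bbx11-1* against *pif4-2*, *ARR4* had a log2 fold change of -0.016 with median-of-ratios scaling and -0.060 with replicates 2 and 3 only. In *bbx11-1* against Col-0, *ARR8* was at 0.0054 with replicates 2 and 3 only.

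With 1 library left out, log2 fold changes in *bbx11-1* against Col-0 ranged from -0.28 to 0.10 for *ARR3*, -0.20 to 0.040 for *ARR4*, -0.13 to 0.029 for *ARR5*, -0.13 to 0.077 for *ARR6*, -0.22 to 0.14 for *ARR8* and -0.13 to 0.0073 for *ARR9*. In *pif4-2* against Col-0 they ranged from -0.043 to 0.26 for *ARR3*, -0.21 to 0.033 for *ARR4* and -0.027 to 0.11 for *ARR6*. In *bbx11-1* against *pif4-2* they ranged from -0.095 to 0.13 for *ARR4*, -0.15 to 0.058 for *ARR6*, -0.028 to 0.097 for *ARR9*, -0.24 to 0.16 for *ARR15* and -0.27 to 0.16 for *ARR16*.

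Of the other cytokinin genes in *pif4-2* against Col-0, 3 passed in the main limma fit and 0 with no filter on low values (more genes tested). With no trend 1 passed, and with replicates 2 and 3 only 1. With 1 library left out 0 to 3 passed, *CKX4* among them without Col-0 replicate 3 (log2 fold change 1.06, limma adjusted p = 0.0335). With the replicate block 5 passed (*LOG7* and *UGT76C1* added). The same-numbered *pif4-2* and Col-0 libraries correlated by 0.07, 0.06 and 0.02, so these share only a number. In *bbx11-1* against *pif4-2*, 1 passed (*ASL9*) with replicates 2 and 3 only and 0 to 1 with 1 library left out. Median-of-ratios scaling ended the call of *KMD4* and passed *AHP1*, at adjusted p of 0.0909 and 0.0294 in limma.

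Over all genes, calls in *bbx11-1* against Col-0 were 28 in the main limma fit, 11 with no filter and 13 with no trend. They were 8 in a fit of the 2 genotypes compared, 16 with replicates 2 and 3 only, and 13 to 42 with 1 library left out. In *bbx11-1* against *pif4-2* they were 122, 78 with no filter and 74 to 138 with 1 library left out. At a fold threshold of 1.5 they were 65, 544 and 304 in *bbx11-1* against Col-0, *pif4-2* against Col-0 and *bbx11-1* against *pif4-2*, and without a threshold 85, 927 and 445. Except for the thresholds and the number of genes tested, the cause was not tested.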
